A study of Caenorhabditis elegans with 2 samples.

Results

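The genes described here build, break down, activate and carry fatty acids in the nematode Caenorhabditis elegans, and their promoters were searched for ChIP-seq peaks of the nuclear hormone receptor NHR-11. They are the 79 protein-coding genes whose names begin with fat, elo, acs, acdh, acox, lipl or lbp, together with pod-2, fasn-1, sbp-1 and mdt-15, among 19973 nuclear protein-coding genes of the Ensembl annotation. The rule that picks them uses gene names. Of the 79, 18 act in synthesis (pod-2, fasn-1, 7 fat and 9 elo genes) and 28 in breakdown (13 acdh, 7 acox and 8 lipl genes). The other members are 22 acs genes, 9 lbp genes and 2 regulators.

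Both libraries came from whole L2 larvae of pooled sexes, of strain OP305, which has the genotype unc-119(ed3) III; wgIs305. The wgIs305 insertion adds an nhr-11 copy tagged with eGFP, and every animal studied carried it along with the unc-119 mutation. The labels give 2 biological replicates as the only group, so there was no untagged strain, other stage or second genotype to compare with. What drives the transgene and in which cells it is on is not stated in the labels, and a peak from whole animals does not say in which tissue it arose. The thresholded list (280 peaks, taken by the irreproducible discovery rate procedure) had signal values from 27.4 upward, while the unthresholded pooled list (13299 peaks) began at 8.36 and had a median of 10.6. Replicates 1 and 2 had unthresholded lists of 25831 and 27015 peaks, with median signals of 5.63 and 4.15. The signal is the peak caller's own value as the authors deposited it and is compared only within a list. Read depth is unknown because the lists hold no read counts.

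Fatty acid synthesis starts from acetyl-CoA. Acetyl-CoA carboxylase (POD-2) and fatty acid synthase (FASN-1) make saturated chains, elongases (ELO) lengthen them and desaturases (FAT) add double bonds. Breakdown starts with lipases, among them the lysosomal lipase family LIPL. Acyl-CoA synthetases (ACS) activate free fatty acids for either fate, and acyl-CoA dehydrogenases (ACDH) and peroxisomal acyl-CoA oxidases (ACOX) open each round of beta-oxidation. LBP proteins bind fatty acids in and outside cells. In the worm much of this takes place in the intestine, and SBP-1 (the SREBP of the worm), the Mediator subunit MDT-15 and several nuclear hormone receptors regulate it.

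A gene is said to have a peak when a summit lay between 1000 bp upstream and 500 bp downstream of one of its annotated transcript 5′ ends. Summit sequences are given early so that the DNA under a peak can be read beside its values: a pair each of synthesis genes, of breakdown genes, and of acs genes. The breakdown pair, lipl-3 and acdh-9, had pooled signals (9.65 and 9.36) below the list median of 10.6, since the higher acdh-4 and acdh-1 lie on a chromosome whose sequences are not shown. Each line holds the summit with 50 bases on either side in the ce11 genome (RefSeq), read 5′ to 3′ on the strand of the gene. Capitals mark matches to the motifs whose counts are given further on.
fat-3 (chrIV:9803835-9803935, plus strand): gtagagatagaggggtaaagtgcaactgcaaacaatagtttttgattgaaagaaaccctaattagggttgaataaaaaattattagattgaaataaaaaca
fat-6 (chrIV:11914383-11914483, minus strand): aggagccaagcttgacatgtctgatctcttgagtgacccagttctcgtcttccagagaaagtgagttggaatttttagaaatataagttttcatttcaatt
lipl-3 (chrV:525153-525253, minus strand): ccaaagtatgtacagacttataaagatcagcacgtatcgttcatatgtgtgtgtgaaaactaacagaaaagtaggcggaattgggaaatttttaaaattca
acdh-9 (chrII:848685-848785, minus strand): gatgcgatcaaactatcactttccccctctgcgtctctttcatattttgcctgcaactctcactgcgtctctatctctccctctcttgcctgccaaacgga
acs-17 (chrX:5944905-5945005, minus strand): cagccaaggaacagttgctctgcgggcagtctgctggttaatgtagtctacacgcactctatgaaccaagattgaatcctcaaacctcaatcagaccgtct
acs-1 (chrV:6527662-6527762, plus strand): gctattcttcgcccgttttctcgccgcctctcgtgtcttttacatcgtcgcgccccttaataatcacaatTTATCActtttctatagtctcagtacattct

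The only match among these 6 windows was a TGATAA site, the GATA factor motif, at acs-1, where it stands in reverse complement. Base composition varied among these windows. The window of fat-3 had 28.7% G and C, and those of acdh-9 and acs-17 had 49.5% and 48.5%. Over the 23 members with a pooled peak the median was 38.6%, against 36.6% over all 13271 nuclear pooled summits.

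No fatty acid gene had a thresholded peak. The count was 0 of 79 (95% Wilson interval 0 to 4.64%), while 0.801% of all nuclear protein-coding genes had one, a share that would amount to 0.633 genes among 79. The absence is therefore within what the background share gives for so few genes. It was also 0 under each of the 6 other ways of assigning peaks, including a window from 2000 bp upstream. The thresholded summit closest to a member's 5′ end lay 2171 bp upstream of elo-3, a fatty acid elongase gene (signal 28.6). A thresholded summit lay within 5000 bp at 7 members. The share of all genes was not computed for this distance, so the count cannot be called low or high.

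In the unthresholded pooled list 23 of the 79 genes had a peak (29.1%, Wilson interval 20.3 to 39.9), against 24.7% of all genes. The share lay close to the background. The 23 genes had signals between 8.77 and 19.2 (median 11.8), beside a median of 11.1 over all 4927 genes with a pooled peak. The highest member, fat-3, reached 70.1% of the lowest thresholded signal and ranked 858 of 13299. Among the strongest 6649 pooled peaks, 17 members had one (21.5%, interval 13.9 to 31.8), against 14.1% of all genes. With only pooled peaks overlapped by a peak of each replicate 15 did (19.0%, interval 11.9 to 29.0), against 13.5%. Both intervals include the share of all genes. Among the strongest 2000 pooled peaks, 3 members had one (fat-3, acs-17 and acs-1; 3.80% of members against 5.43% of all genes). Summits within 500 bp of a short non-coding RNA gene were counted separately, and they made up 0 of the 23 against 4.12% of all genes with a pooled peak.

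**Figure D1:**
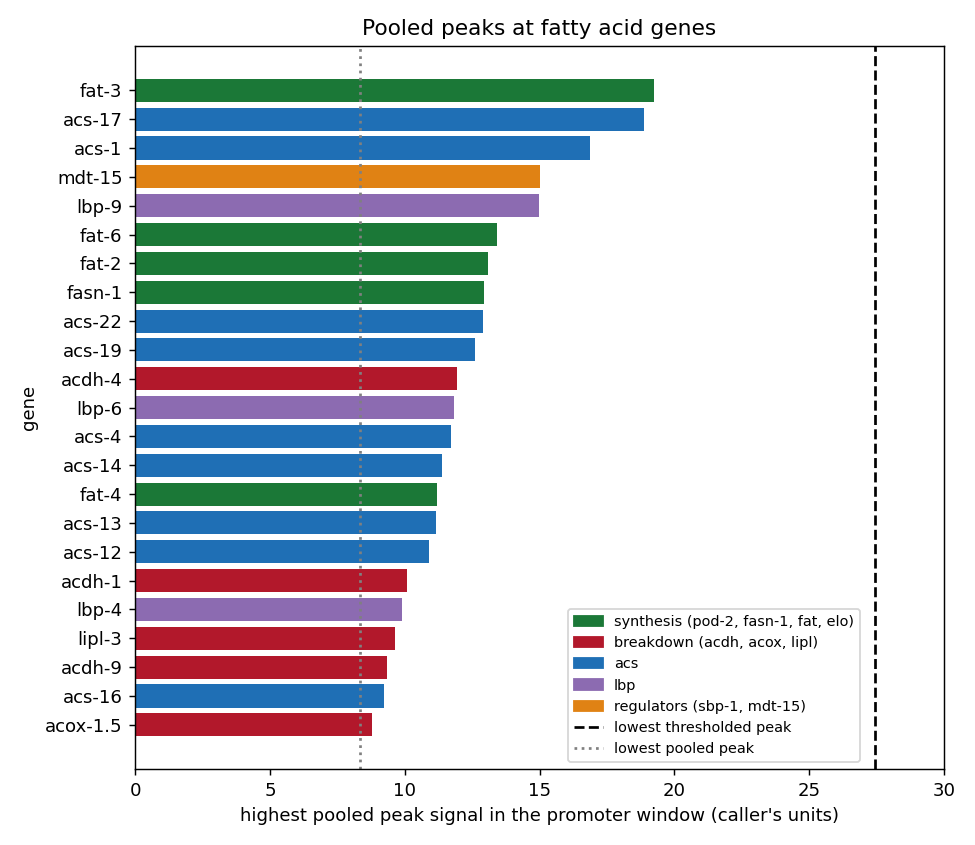
Bars give the highest pooled signal (caller's units, linear axis from 0) in the promoter window of each of the 23 members with a pooled peak, coloured by role; the other 56 members had none. All bars end below the dashed line at 27.4, the lowest thresholded signal, and the 5 breakdown genes lie between 8.77 and 11.9.

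The desaturases were the synthesis family with the most peaks, and the elongases had none in the pooled list. Pooled peaks were found at 4 of 7 fat genes (interval 25.0 to 84.2%), at fasn-1 and at 0 of 9 elo genes (0 to 29.9%). The 24.7% of all genes would amount to 1.73 fat and 2.22 elo genes. The fat interval began just above that 24.7%, and the fat and elo intervals overlap. The gene fat-3, a front-end desaturase of the polyunsaturated pathway, had a signal of 19.2 in the pooled list, 12.6 in replicate 1 (rank 934) and 4.05 in replicate 2 (rank 14235). It thus stood high in replicate 1 and in the middle of the list in replicate 2, whose median signal was 4.15. The summit (peak at chrIV:9803670-9804099) was in an intron of fat-3, 633 bp upstream of an internal 5′ end. When only the outermost 5′ end of each gene was used, the highest signal for fat-3 was 11.2, from another peak.

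That other peak (chrIV:9801889-9802318) belonged to both fat-3 and its upstream neighbour fat-4, the desaturase that acts after it. Its summit was in the 3′ UTR of fat-4 and 919 bp upstream of the outermost 5′ end of fat-3. It was assigned to fat-4 through a short annotated transcript that begins 199 bp before the summit. This peak had a signal of 11.2 pooled, and the replicate peaks overlapping it had 6.72 and 2.89. The highest replicate signals of fat-4, 6.95 and 3.78, came from summits near its other 5′ ends.

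Replicate 2 was the higher-ranked replicate for fat-6 and fat-2, the reverse of fat-3. The gene fat-6, a stearoyl-CoA desaturase, had signals of 13.4 pooled, 6.81 in replicate 1 (rank 7812) and 8.33 in replicate 2 (rank 1595). The pooled summit lay in a coding exon of fat-6, 238 bp downstream of a 5′ end (chrIV:11914218-11914647), while the replicate 2 summit was 167 bp upstream of that 5′ end. That 5′ end is internal, and with the outermost 5′ end alone the highest signal for fat-6 was 8.95, from another peak. For fat-2, which desaturates oleic acid, the signals were 13.1 pooled, 5.03 in replicate 1 (rank 16711) and 7.78 in replicate 2 (rank 2099). Its pooled summit was likewise in its own coding exon, 443 bp downstream (chrIV:13324101-13324530), and a stronger replicate 1 peak overlapping it (6.74, rank 8027) had its summit outside the window. Of the other desaturase genes, fat-1 had a peak in replicate 2 alone (6.21, rank 4590), and fat-5 and fat-7, desaturases of saturated chains, had none in any list.

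At the fatty acid synthase gene fasn-1 a peak of each replicate overlapped the pooled one. Its signals were 12.95 pooled, 9.68 in replicate 1 (rank 2452) and 6.30 in replicate 2 (rank 4411), with an intergenic pooled summit 593 bp upstream (chrI:8986918-8987347). The replicate summits lay apart, 622 bp upstream in replicate 1 and 390 bp in replicate 2. Another replicate 1 summit, 356 bp upstream, had a signal of 5.71 (rank 12440). The acetyl-CoA carboxylase gene pod-2 had a peak in replicate 1 alone (6.59, rank 8617). With windows from 2000 bp upstream pod-2 gained a pooled peak of 14.9. Elongase genes appeared mostly in replicate 2, where 6 of 9 had a peak (signals 3.08 to 5.04), against 2 of 9 in replicate 1 (4.39 and 7.68). The shares of all genes would amount to 3.57 and 3.63 of 9, and the intervals of the counts (35.4 to 87.9% and 6.32 to 54.7%) overlap. Only elo-3 was in both, with 7.68 and 3.24.

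The breakdown families had pooled peaks in numbers near or a little under the background, with signals of at most 11.9. A pooled peak was found at 3 of 13 acdh genes, 1 of 7 acox genes and 1 of 8 lipl genes, where the 24.7% of all genes would amount to 3.21, 1.73 and 1.97. The highest was acdh-4, with 7.92 in replicate 1 (rank 4841) and 3.80 in replicate 2 (rank 16053). Its summit lay 41 bp upstream, within the 3′ UTR of a neighbour, F57B10.8 (chrI:6548501-6548930). It was the 1 breakdown gene whose pooled peak was overlapped by a peak of each replicate.

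At the other breakdown genes 1 replicate alone overlapped the pooled peak. The gene acdh-1, a dehydrogenase of short and branched acyl-CoA known for its response to diet, had 10.1 pooled, 473 bp downstream in its own intron, and its only peak with a summit in the window in replicate 1 was another, of 4.08 (rank 24613). A replicate 1 peak of 8.88 overlapped the pooled one but had its summit beyond the window, and replicate 2 gave acdh-1 none. The reverse held for acdh-9, with 9.36 pooled, none in replicate 1 and 6.39 in replicate 2 (rank 4177), its summit 132 bp upstream in intergenic sequence. For lipl-3, a lysosomal lipase gene induced by fasting, the values were 9.65 pooled, 7.61 in replicate 1 and 4.96 in replicate 2. Its pooled summit was 985 bp upstream, at the edge of the window, and the replicate 2 summit 492 bp downstream. The peaks of acdh-9 and lipl-3 were also in the windows of F28A10.13 and R11G11.16, and both genes lost them when each peak went only to the nearest 5′ end, which left 3 of the 5 breakdown genes. The last was acox-1.5, a peroxisomal oxidase gene, with 8.77 pooled (rank 11670), 5.20 in replicate 1 and none in replicate 2.

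A few breakdown genes ranked high in replicate 2 without a pooled peak, and they are named after their values were seen. They were acox-1.2 (8.85, rank 1253; none in replicate 1) and acdh-3 (8.65, rank 1377; 5.33, rank 14695 in replicate 1, at another site). A pooled peak of signal 21.6 on X lay just outside the windows of a pair of dehydrogenase genes, 748 bp downstream of the acdh-7 5′ end and 1454 bp upstream of that of acdh-10. With windows from 2000 bp upstream it went to acdh-10, which then had a higher signal than fat-3.

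The intervals of synthesis and breakdown overlapped in each part of the pooled list. A pooled peak was present at 5 of 18 synthesis genes (27.8%, Wilson interval 12.5 to 50.9) and 5 of 28 breakdown genes (17.9%, 7.88 to 35.6). Both intervals include the 24.7% of all genes. The difference of 9.92 points became -0.22 when acs genes were counted as breakdown. Among the strongest 6649 pooled peaks the counts were 5 of 18 (27.8%, interval 12.5 to 50.9) and 1 of 28 (3.57%, interval 0.633 to 17.7), beside 14.1% of all genes. Among the strongest 2000 they were 1 of 18 and 0 of 28. With only pooled peaks overlapped by a peak of each replicate the counts were 5 of 18 and 1 of 28, beside 13.5% of all genes. Median signals over the 5 genes of each class were 13.1 for synthesis and 9.65 for breakdown. These are counts of genes within 1 experiment, so no test between the classes was made, and intervals cover counting error only.

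The order of the classes in the replicates depended on how much of each list was used. In the full list of replicate 1 a peak was found at 8 of 18 synthesis genes (44.4%) and 14 of 28 breakdown genes (50%), beside 40.4% of all genes. In that of replicate 2 it was 12 of 18 (66.7%) and 13 of 28 (46.4%), beside 39.7% of all genes. Synthesis was thus the lower class in the full list of replicate 1 and the higher in that of replicate 2. With the strongest 13299 peaks of each, synthesis was the higher in both, with 33.3% against 25% in replicate 1 and 33.3% against 21.4% in replicate 2, beside 24.4% and 23.5% of all genes. When both replicate lists had to hold a peak, 6 synthesis genes (33.3%) and 5 breakdown genes (17.9%) were left, beside 21.4% of all genes. Annotated 5′ ends widen the searched window. More than 1 was present at 38.9% of synthesis and 32.1% of breakdown genes, against 27.4% of all genes. The fat genes with a pooled peak (fat-2, fat-3, fat-4 and fat-6) had 2, 4, 3 and 3. Those without one (fat-1, fat-5 and fat-7) had 1 each. By contrast, fasn-1 had a pooled peak with 1 and pod-2 had none with 6. The part of 5′ ends in the class shares was not tested.

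**Figure D2:**
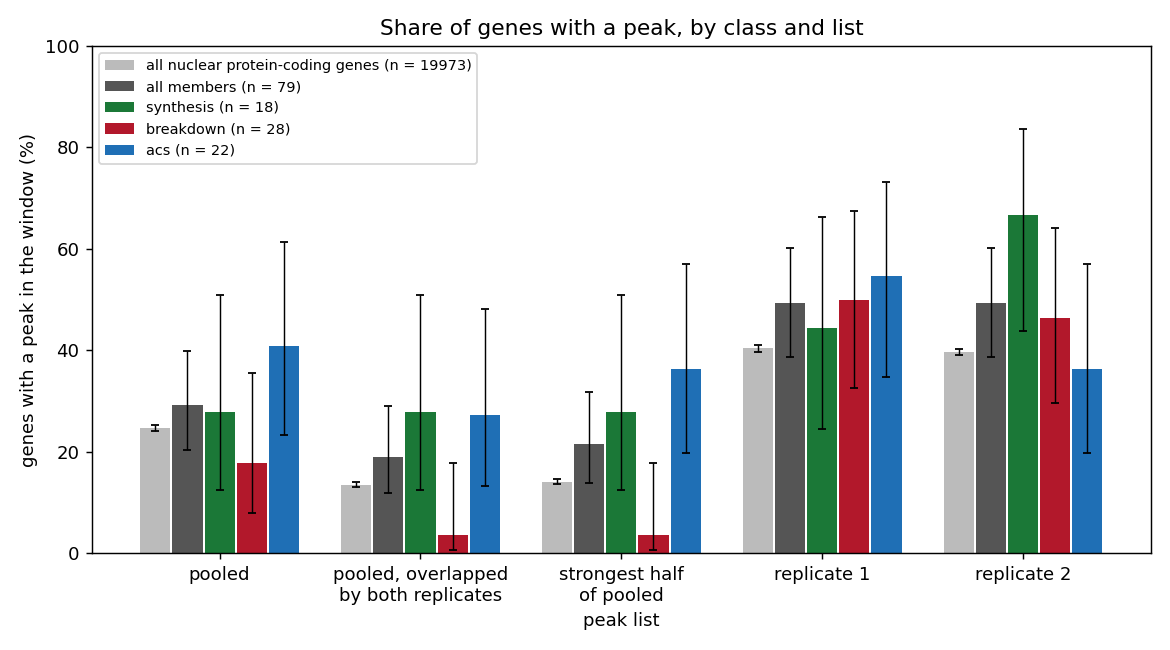
Bars give the percentage of genes with a peak summit in the promoter window in 5 peak lists, for all nuclear protein-coding genes, all members, synthesis, breakdown and acs genes; error bars are 95% Wilson intervals over genes. The breakdown share is 3.57% in the upper part of the pooled list and the synthesis share 27.8%, and the full replicate lists order the classes differently, which their strongest 13299 peaks do not.

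The acyl-CoA synthetase family had the largest number of pooled peaks. Of 22 acs genes 9 had one (40.9%), with an interval of 23.3 to 61.3 that includes the 24.7% of all genes and overlaps those of both classes. Of the 9, 8 were among the strongest 6649 peaks (36.4% of the 22), with an interval of 19.7 to 57.0 that lies above the 14.1% of all genes. The fat genes (4 of 7, interval 25.0 to 84.2) lay above it too. Several families and lists were looked at, and the intervals are not adjusted for their number. With overlap by a peak of each replicate 6 of 22 acs genes were left (27.3%). Their interval of 13.2 to 48.2 includes the 13.5% of all genes, while that of the fat genes (again 25.0 to 84.2) does not. The highest was acs-17 on X, with 18.9 pooled (rank 924) at an intergenic summit 445 bp upstream (chrX:5944740-5945169). It had a second pooled peak of 16.8 by another 5′ end, and there replicate 1 had a signal of 18.5 (rank 239). This made acs-17 the only member within the 280 strongest peaks of replicate 1, and no member was within the 280 strongest of replicate 2. The share of all genes within those peaks was not computed, so these counts have no background beside them. In replicate 2 the highest signal for acs-17 was 6.20 (rank 4623), 131 bp downstream of a 5′ end, from a peak that overlapped neither pooled peak. The replicate 2 peak overlapping the pooled peak of 18.9 had 4.64 (rank 10520).

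The gene acs-1, which activates branched-chain fatty acids, ranked higher in replicate 1 as well. It had 16.9 pooled (rank 1375), 11.2 in replicate 1 (rank 1430) and 5.44 in replicate 2 (rank 6884), with the summit in its own intron 237 bp downstream of a 5′ end (chrV:6527497-6527926). That 5′ end is internal, and with the outermost 5′ end alone acs-1 had no pooled peak. For acs-22, a fatty acid transport protein homologue, the pooled value was 12.9 at 280 bp upstream (chrX:8930684-8931113), and only replicate 2 had a peak overlapping it (5.73). The replicate 1 signal for acs-22 (10.05) was 79 bp downstream of another of its 5′ ends. The remaining 6 genes of the family with a pooled peak were acs-19 (12.6), acs-4 (11.7), acs-14 (11.4), acs-13 (11.1), acs-12 (10.9) and acs-16 (9.22). The acs-12 peak was shared with amx-3 and was lost to it when only the nearest 5′ end counted. In replicate 2, 8 of 22 acs genes had a peak (36.4%), below the 39.7% of all genes. In replicate 1 there were 12 (54.5%), with an interval of 34.7 to 73.1 that includes the 40.4% of all genes.

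Among the fatty acid binding proteins 3 of 9 genes had a pooled peak, where the 24.7% of all genes would amount to 2.22. For lbp-9 the signals were 14.97 pooled, 9.66 in replicate 1 (rank 2469) and 3.68 in replicate 2 (rank 17074), with an intergenic summit 204 bp upstream (chrV:2068030-2068459). The gene lbp-6 had 11.8 pooled (rank 4606) but higher ranks in each replicate, with 11.3 (rank 1370) and 7.41 (rank 2524). Its pooled summit was in its own coding exon 64 bp downstream (chrI:6729097-6729526). The replicate summits lay apart, 51 bp downstream in replicate 1 and 342 bp in replicate 2. The latter was nearer a second, weaker pooled peak of lbp-6 (8.83, 294 bp downstream). For lbp-4 a pooled peak of 9.92 was matched in replicate 1 (7.70) and not in replicate 2.

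Of the regulators, mdt-15 had a peak in every unthresholded list and sbp-1 in none. The mdt-15 signals were 15.03 pooled (rank 2010), 10.01 in replicate 1 (rank 2166) and 7.61 in replicate 2 (rank 2291). Its ranks were closer together than those of the other members with a pooled signal above 14. The summit (chrIII:5833831-5834260) lay 295 bp upstream of mdt-15 in a coding exon of R12B2.6, and R12B2.6 and R12B2.13 had the same peak in their windows. When each peak went only to the nearest 5′ end, mdt-15 lost it. For sbp-1 the nearest pooled summit was 2374 bp upstream, with a signal of 20.9.

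The genes with a peak in both replicates were not ordered alike by them. There were 21 such members (26.6%, beside 21.4% of all genes), and the log2 signals of the replicates gave r = 0.066 and rho = 0.051 over these 21 genes. Over all 4278 genes with a peak in both lists r was 0.41 and rho 0.29. Each gene's highest signal in each replicate was used, and at some genes, such as acs-22 and lipl-3, these came from different sites. The values therefore do not measure how far the replicates differ at the same peak. These are descriptions across genes, which share the same pair of libraries and can share a peak. The pooled peak of 15 of the 23 members (65.2%) was overlapped by a peak of each replicate, against 53.5% of all genes with a pooled peak. For 6 members only replicate 1 overlapped it and for 2 only replicate 2. Since the pooled list was made from the same reads, such overlap is not independent of it.

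**Figure D3:**
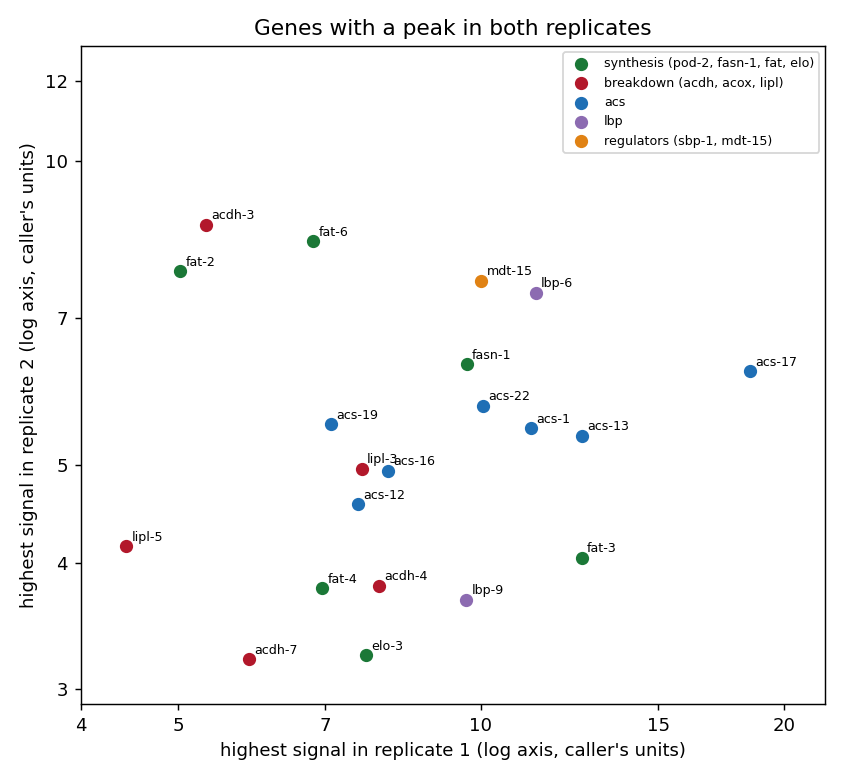
Each point is 1 of the 21 members with a peak in both replicate lists, placed by its highest signal in replicate 1 and replicate 2 (log axes, caller's units, each replicate on its own scale) and coloured by role. The points show no common order, with fat-3 at 12.6 and 4.05 and fat-6 at 6.81 and 8.33. For some genes, these among them, the highest peaks of the replicates lay at different sites.

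Summits of the 23 members lay on both sides of the 5′ end. They were upstream for 14 of 23 (60.9%), against 74.5% of all genes with a pooled peak, at a median of 295 bp from the nearest 5′ end against 315 bp. Of the 23, 9 were intergenic, 5 in coding exons, 5 in introns or other transcript parts, 2 in 3′ UTRs and 2 in 5′ UTRs. The coding exon group held fat-2, fat-6, acs-14 and lbp-6 with the summit in the gene itself, and mdt-15 with it in the neighbouring gene. For 18 of the 23 no other protein-coding gene had the same peak in its window. For these locations and for shared peaks the shares of all genes with a pooled peak were not computed.

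**Figure D4:**
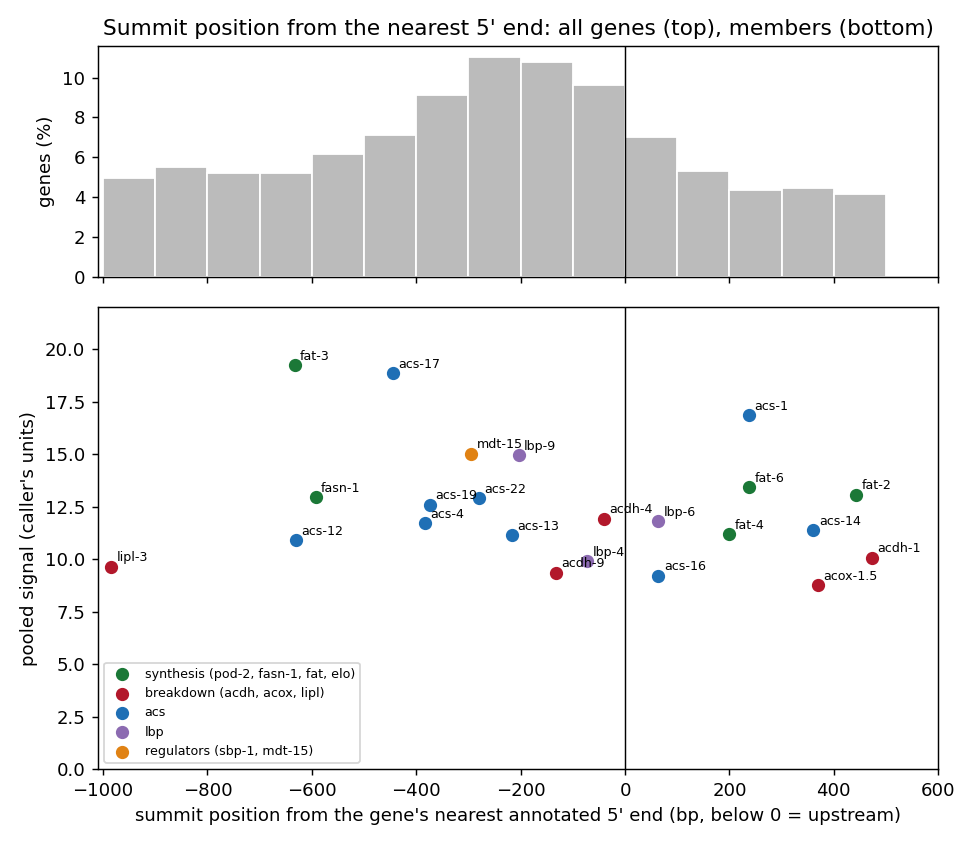
The top panel gives the percentage of all genes with a pooled peak in bins of 100 bp from the nearest annotated 5′ end (0, with upstream to the left), and the bottom panel the position and pooled signal of the 23 members. Desaturase points fat-2, fat-4 and fat-6 lie downstream of a 5′ end, and lipl-3 lies 985 bp upstream, at the edge of the window.

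Motif matches in the member summits were few, searching both strands. Many nuclear receptors bind sites built on AGGTCA, which was found in 2 of 23 windows (acs-19 and lbp-9; 8.70%) and in 2.99% of all 13271 nuclear pooled summits. The other nuclear receptor hexamers searched were AAGTCA, in 1 window (acs-22; 4.35% against 4.56% of all), and AGTTCA, in 1 (mdt-15; 4.35% against 6.18%). TGATAA was in 2 (acs-1 and acs-13; 8.70% against 9.42%). CACGTG, the E-box bound by HLH-30 among others, was in 1 (fat-2; 4.35% against 1.86%), and the sterol response element TCACNCCAC in none (0.279% of all). A match describes the letters only. The windows with AGGTCA or CACGTG are shown, in the same form as above, because they hold a motif of nuclear receptors and that of a lipase regulator. Those with the other receptor hexamers are not shown. They were picked after the matches were known.
acs-19 (chrIII:3864065-3864165, plus strand): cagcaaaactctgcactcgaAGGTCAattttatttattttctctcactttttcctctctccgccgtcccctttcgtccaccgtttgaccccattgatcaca
lbp-9 (chrV:2068195-2068295, plus strand): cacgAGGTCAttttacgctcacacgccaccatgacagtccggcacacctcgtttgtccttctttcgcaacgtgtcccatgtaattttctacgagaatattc
fat-2 (chrIV:13324266-13324366, plus strand): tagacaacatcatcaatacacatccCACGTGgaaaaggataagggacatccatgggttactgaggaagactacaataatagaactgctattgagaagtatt

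The acs-19 and lbp-9 windows, which hold AGGTCA, belonged to peaks with pooled signals of 12.6 (rank 3700) and 14.97 (rank 2033). In the fat-2 window the CACGTG lies within the coding exon described above.

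Genes of neighbouring steps, listed apart from the members, had no thresholded peak either. Of 26 further breakdown genes 11 had a pooled peak (42.3%, interval 25.5 to 61.1), of 6 further synthesis genes 2 had one (33.3%, 9.68 to 70.0), and all 5 listed regulators did, beside 24.7% of all genes. Among the strongest 6649 peaks the shares were 19.2% of further breakdown and 16.7% of further synthesis genes, beside 14.1% of all. With overlap by a peak of each replicate they were 30.8% and 16.7%, beside 13.5%. Breakdown was thus the higher class here, unlike among the members, with overlapping intervals. The highest signals were at nhr-66, a nuclear hormone receptor of lipid metabolism (26.6 pooled, rank 302; 12.8 in replicate 1 and 12.4 in replicate 2), and ech-1.2, a subunit of the mitochondrial trifunctional protein (23.2, rank 485; 11.1 and 19.2). Both had higher pooled signals than any of the 79 members. Next came atgl-1, the main triglyceride lipase of lipid droplets (18.1; 10.7 and 6.31). The receptor gene nhr-49, a regulator of fatty acid oxidation and desaturation, had 13.9 (6.79 and 7.35). No pooled peak was found at the carnitine palmitoyltransferase genes cpt-3, cpt-5 and cpt-6, while cpt-1, cpt-2 and cpt-4 had signals of 8.45 to 9.23.

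Of the 79 genes 57 (72.2%, interval 61.4 to 80.8) had a peak in at least 1 of the unthresholded lists, beside 59.2% of all genes, and 22 had none. More than 1 annotated 5′ end, hence a wider searched region, was present at 32.9% of the 79 and 27.4% of all genes, and its part in this share was not tested. The 22 were the acs genes acs-3, acs-7, acs-9, acs-10, acs-11, acs-15, acs-18, acs-21 and acs-24, the desaturases fat-5 and fat-7, the elongases elo-6 and elo-8, and sbp-1. On the breakdown side they were acdh-2, acdh-6, acdh-8, acox-1.1, acox-1.6 and lipl-7, and among the binding proteins lbp-7 and lbp-8. Peaks in 1 replicate alone were found at 13 genes (16.5%, beside 13.1% of all) in replicate 1, among them acs-2, a fasting-induced target of NHR-49 (4.57, rank 20232), and at 17 genes (21.5%, beside 15.2% of all) in replicate 2. Another 4 (acdh-3, acdh-7, elo-3 and lipl-5) had a peak in each replicate and none in the pooled list. For the 56 members without a pooled peak the nearest pooled summit was at a median of 2969 bp from a 5′ end.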

How the data were processed

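ChIP-seq of eGFP-tagged NHR-11 gave peak lists for 2 biological replicates of 1 group and for both pooled. Per the text files deposited beside them, each list was called against a control, and the thresholded peaks derive from the other lists. The signal of each peak and the summit offset in bp from its start are as the authors deposited them, but the sources used here do not name its scaling, the aligner or the caller. The control was not analysed here. Depth is unknown, so no interval includes it. Lists on ce10 were not used, for want of an annotation of that build.

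Ensembl release 115 (WBcel235, which is ce11) gave genes and transcript 5′ ends. Coordinates are 1-based on ce11, and sequences come from the RefSeq genome of that build. Many worm transcripts are trans-spliced, so an annotated 5′ end can lie downstream of the true start. For each gene the highest signal among peaks with a summit in its windows was taken. No test was run, since there was 1 group, and counts stand beside the same over all nuclear protein-coding genes, with 95% Wilson intervals. Genes named were all fat genes, pod-2, fasn-1, sbp-1 and mdt-15, the 3 of highest pooled signal in each other family, and others noted where they appear. Summit sequences were shown for the highest 2 genes of each class, leaving out 1 chromosome. The members, lists and motifs were chosen with earlier results of these data known. The assignment was tested on simulated summits, and other windows, 5′ ends and peak subsets were tried. Python 3.11.15, pandas 2.3.3 and scipy 1.17.1 were used.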

Additional observations from a re-analysis of the deposited data

How the results depend on the processing

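The count of 0 members with a thresholded peak held under all 6 alternative assignments (windows from 500 and 2000 bp upstream, outermost 5′ ends, any part of the peak, nearest 5′ end, no peaks by short RNA genes). Over the 11 alternatives for the 23 members with a pooled peak the count was 15 with overlap by both replicates, 3 among the strongest 2000 peaks, and 17 to 32 otherwise, including 23 and 28 with the strongest 13299 peaks of replicate 2 or replicate 1 alone. Windows from 2000 bp upstream added 9 members, and the outermost 5′ end alone removed 4 (acdh-1, acs-1, acs-13 and fat-4). The share of all genes with a peak moved with the settings too. Members had 40.5% against 33.4% of all genes with windows from 2000 bp upstream, and 24.1% against 22.1% with the outermost 5′ end alone. The strongest 13299 peaks of replicate 1 alone gave 35.4% against 24.4%, and overlap by both replicates 19.0% against 13.5%. Only among the strongest 2000 peaks was the member share the lower (3.80% against 5.43%).

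The share of breakdown genes moved from 17.9% to 3.57% among the strongest 6649 peaks and also with overlap by both replicates, and to 0% among the strongest 2000, where synthesis fell to 5.56%. It was 28.6% with windows from 2000 bp upstream and 10.7% with the nearest 5′ end. Synthesis minus breakdown was 9.92 points, turned to -0.22 when acs genes counted as breakdown, and lay between 5.56 and 24.2 in the other alternatives. The median breakdown signal, 9.65, was 11.3 with acs genes, 11.9 among the strongest 6649 and with overlap by both replicates, and 11.01 with windows from 2000 bp upstream. The median synthesis signal, 13.1, was 19.2 among the strongest 2000 peaks and 11.2 with windows from 500 bp upstream. With 1 replicate left out they were 6.01 to 6.70 and 6.25 to 7.32, on each replicate's own signal scale. No breakdown gene was left among the strongest 2000, so that median has no value. The causes of these changes were not tested.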
